A study of Mus musculus with 46 samples.

Results

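The genes described here encode the proteins of the 2 ribosomes of mouse cells: the cytosolic ribosome (symbols beginning Rpl, Rplp, Rps and Rpsa) and the mitochondrial ribosome (Mrpl and Mrps). Members were chosen by gene symbol alone, leaving out symbols marked as pseudogenes and the Rps6k kinases, and each gene was represented by its brightest probe set. This gave 140 members of 19938 genes on the arrays, of which 63 were cytosolic (38 of the large subunit and 25 of the small) and 77 mitochondrial (48 large and 29 small). A further 21 symbols of the same families, among them Rpl3, Rpl11, Rpl39 and Rps27, lay only in probe sets listed with another symbol and were not analysed. Some members share the name and not the role: Rps19bp1 binds a ribosomal protein, Rps23rg1 is a retrogene, Rpl7l1 is a paralogue of Rpl7, and Mrps36 is known as a component of a 2-oxoglutarate dehydrogenase complex.

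The cytosolic ribosome translates the messages of the nucleus, and its proteins are made in near equal numbers and are among the most abundant products of a growing cell. The mitochondrial ribosome has its own, entirely nuclear-encoded protein set and translates only the few membrane subunits of the respiratory chain. In the germ line, several retrogene copies of X-linked ribosomal protein genes are known to be used when the X chromosome is silenced in meiosis, Rpl10l for Rpl10 and Rpl39l for Rpl39.

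The data came from 46 whole-transcript arrays, which held 2 cultures of each of 23 mouse lines in 8 groups. Germline stem cells (GS, lines 1 to 3) are spermatogonial stem cells grown in StemPro-34 medium with GDNF and FGF2. The 7 pluripotent types were grown in serum with LIF. They were embryonic stem cells (ES: R1, a hybrid of 129 substrains, B6-6 from C57BL/6J, and BRC1 from a cross of B6xDBA2 with 129), induced pluripotent stem cells (lines iPS 1, 2 and 5, reprogrammed by retroviruses carrying Oct4, Klf4, Sox2 and c-myc), multipotent germline stem cells that arose spontaneously from GS cultures (mGS 1 and 2), and 4 lentiviral routes from GS cells of 3 lines each. The routes were knockdown of p53 and Dnmt1 (Dnmt mGS), knockdown of p53 and Dmrt1 (Dmrt mGS), and p53 knockdown combined with either Sox2 (Sox2 mGS) or Oct4 (Oct4 mGS). GS, iPS and all mGS lines were on a DBA/2 background carrying GFP, all lines grew on mouse fibroblast feeders that were removed by plating on gelatin, and each line is a clone or culture with no known relation to its namesake in another group.

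The labels were checked against marker genes. By group mean all 10 spermatogonial markers were above background in GS. Their summed intensity there was 54413 to 64019 against 1656 to 3665 over the other 7 types. All 10 pluripotent cell markers were above background by group mean in each pluripotent type, but Esrrb was 127.5 in line Sox2 mGS 2. These markers summed to 25484 to 31239 in Sox2 mGS and 26170 to 43426 in Oct4 mGS, against 43977 to 50347 in iPS. In Sox2 mGS 5 of the 10 were lower than in iPS and 0 higher. Dmrt1 was 3379 to 4220 in GS and 191 to 554 in Dmrt mGS, a range that the other pluripotent types shared. Dnmt1 was 620 in the lowest Dnmt mGS line and 2752 in the line labelled Dnmt mGS 2, which is above the ES, iPS and mGS lines, so this line goes against its label. Sox2 was 1253 to 1303 in Sox2 mGS, below the 3657 or more of ES, iPS, mGS, Dnmt mGS and Dmrt mGS. In GS 5 of the 10 pluripotent cell markers were above background by group mean, and the 10 summed to 1858 to 4293. In GS 1, 2 and 3 Sox2 was 1807, 331 and 293, so GS 1 exceeded the Sox2 mGS lines. Pou5f1 was 1000, 365 and 381 in these lines, against 4042 or more in the pluripotent lines. Feeder and fibroblast markers, 20 genes, summed to 42594 to 57477 in Sox2 mGS. In Oct4 mGS they summed to 26732 to 44581, against 14770 to 16948 in iPS and 8954 to 27904 in GS. The 14 testis somatic cell markers summed to 5785 to 10254 in GS and 15099 to 19084 in Sox2 mGS. In whole cultures, fewer cells of a type and less RNA per cell cannot be told apart.

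Some of the members share sequence features that the choice by name did not use, and the stretches that show them are given first. RefSeq promoter windows of 300 bases (250 before and 50 after the annotated start, build GRCm38.p6) were at hand for 119 members. Cytosolic ribosomal protein messages are known to begin with a C and a run of pyrimidines, the terminal oligopyrimidine motif through which mTOR signalling controls their translation. A start of C followed by 4 pyrimidines was annotated in 10 of 51 cytosolic windows (19.6%) and in 0 of 68 mitochondrial windows, against 2.2% of 15614 windows of all genes. The 10 starts are printed with 15 bases on either side of the first transcribed base, and the capitals mark that C and the 4 pyrimidines after it, in Rps15a also the letters GCCATCTT of the motif AAGATGGC read on the other strand.
Rpl14 (chr9:120571502-120571531, plus strand): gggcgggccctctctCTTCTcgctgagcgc
Rpl28 (chr7:4792950-4792979, plus strand): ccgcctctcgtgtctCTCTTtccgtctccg
Rpl32l (chr10:20208424-20208453, plus strand): aaataaaatgaccagCTTCTtccttggtgc
Rpl38 (chr11:114668565-114668594, plus strand): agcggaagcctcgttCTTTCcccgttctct
Rplp2 (chr7:141447636-141447665, plus strand): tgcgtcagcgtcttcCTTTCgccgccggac
Rps10 (chr17:27635230-27635259, minus strand): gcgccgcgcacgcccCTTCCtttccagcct
Rps15a (chr7:118116133-118116162, minus strand): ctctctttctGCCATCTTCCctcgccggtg
Rps18 (chr17:33955651-33955680, minus strand): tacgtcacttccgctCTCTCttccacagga
Rps21 (chr2:180257364-180257393, plus strand): taccgaggacccgccCTCCTgcccaatagt
Rps6 (chr4:86857353-86857382, minus strand): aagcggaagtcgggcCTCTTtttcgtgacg

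Of these 10 genes only Rpl14 and Rps21 were lower in GS than in the pluripotent types, and the median log2 difference of the 10 was −0.05. Among the 41 cytosolic members whose annotated start lacks the letters, 24 were lower and the median was −0.20. The annotated start decides this letter match, and no inference about translation is drawn from it.

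In the mitochondrial windows the letters CCGGAAG (an ETS-type motif, searched on both strands) stood in 24 of 68 (35.3%), the same share as in the cytosolic windows (18 of 51, 35.3%) and above the 12.5% of all windows. The letters AAGATGGC (a YY1-type motif, both strands) stood in 17.6% of mitochondrial windows, 3.9% of cytosolic windows and 3.4% of all. The palindrome CTCGCGAG was found in 11.8% of cytosolic, 2.9% of mitochondrial and 1.4% of all windows, while the E-box CACGTG (7.8%, 7.4% and 8.4%) and TATAAA (9.8%, 5.9% and 12.1%) were no more frequent than elsewhere. Cytosolic and mitochondrial windows each held a median of 21 CG dinucleotides, against 15 over all windows, and the motif shares were not matched for this. The ETS and YY1 letters occurred together in 3 mitochondrial windows, those of Mrps12, Mrps18a and Mrps27. For these 3 genes, and for 4 cytosolic members described at length in the comparison of GS with pluripotent cells, the 75 bases before and 10 bases from the start are printed, with any motif letters in capitals.
Rps4x (chrX:102189382-102189466, minus strand): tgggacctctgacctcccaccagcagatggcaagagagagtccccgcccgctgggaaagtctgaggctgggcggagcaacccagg
Rpl12 (chr2:32961637-32961721, plus strand): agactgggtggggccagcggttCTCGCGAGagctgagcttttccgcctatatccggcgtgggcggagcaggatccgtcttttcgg
Rpl10l (chr12:66284392-66284476, minus strand): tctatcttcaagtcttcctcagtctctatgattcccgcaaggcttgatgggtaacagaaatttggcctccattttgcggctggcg
Rpl39l (chr16:10170153-10170237, plus strand): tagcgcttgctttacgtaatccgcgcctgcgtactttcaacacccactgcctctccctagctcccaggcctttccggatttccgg
Mrps12 (chr7:28741812-28741896, minus strand): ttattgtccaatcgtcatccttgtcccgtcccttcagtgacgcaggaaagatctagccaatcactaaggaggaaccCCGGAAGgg
Mrps18a (chr17:46110929-46111013, plus strand): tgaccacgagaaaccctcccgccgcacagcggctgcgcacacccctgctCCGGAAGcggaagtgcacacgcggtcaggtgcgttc
Mrps27 (chr13:99344711-99344795, plus strand): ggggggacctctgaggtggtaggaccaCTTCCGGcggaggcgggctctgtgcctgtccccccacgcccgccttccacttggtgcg

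In Rpl12 the capitals mark CTCGCGAG 53 bases before the start. Rps4x, Rpl10l and Rpl39l hold none of the 5 motifs in the stretch shown. Mitochondrial members with the ETS letters were lower in GS in 12 of 24 cases and higher in 3, and those without them were lower in 26 of 44 and higher in 4.

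Levels are array intensities, and differences are log2 ratios, first group over second, ± the standard error of a limma fit to all 23 lines, with n of 3 lines per group and 2 for mGS. A member rose or fell when its p, adjusted by the Benjamini-Hochberg method over all 19938 genes, was under 0.05. Background, the 95th percentile of 1027 olfactory receptor genes, was 161. Of the members only Rpl3l, a paralogue of Rpl3 known from striated muscle, had a mean below it, with 74.2 to 140.9 over all lines. The labels do not say how separate the 2 cultures of a line were, so p-values measure the spread between lines.

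By their brightest probe sets, cytosolic ribosomal proteins varied less than the mitochondrial ones. The array held several probe sets for 39 cytosolic and 8 mitochondrial members, and the spread of the dimmer ones was not computed. The SD over the 23 lines on the log2 scale had a median of 0.149 for the cytosolic and 0.282 for the mitochondrial members, against 0.301 for the 12749 genes above background. The steadiest of the cytosolic classes were Rps6, the small subunit protein phosphorylated by S6 kinase, with an SD of 0.038, and Rps2 at 0.059, and in the large subunit Rpl28 at 0.051 and Rpl38 at 0.056. The most variable were Rpl39l (1.15) and Rpl10l (1.03) of the large and Rps23rg1 (0.725) and Rps4x (0.686) of the small cytosolic subunit. Among mitochondrial proteins the SD ran from 0.135 in Mrpl39 and 0.140 in Mrps18b to 0.496 in Mrpl32 and 0.619 in Mrps34. Mrpl57 and Mrps21 were the next steadiest of their classes, and Mrpl18 and Mrps24 the next most variable.

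**Figure D1:**
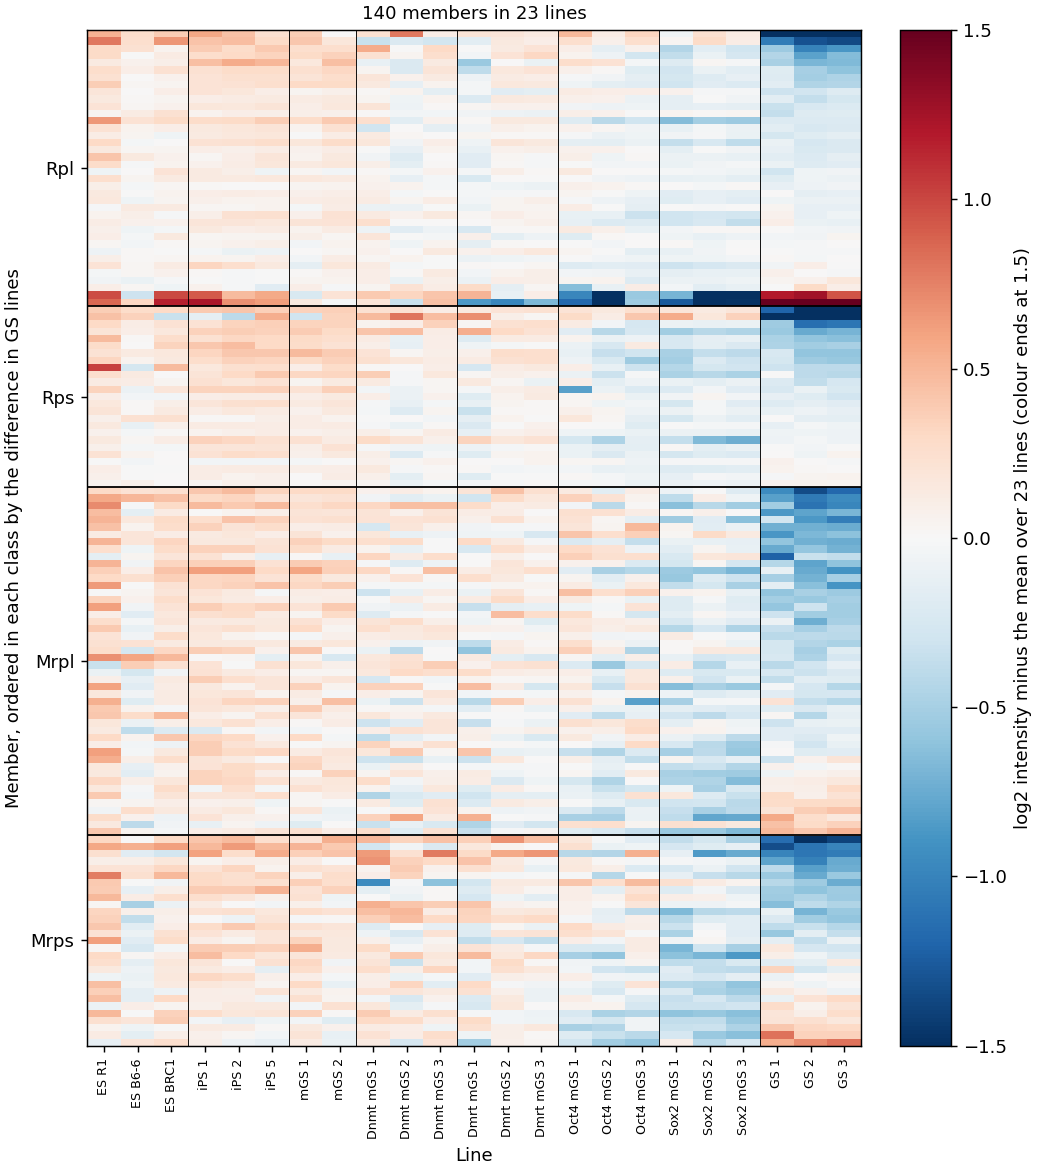
Log2 intensity of the 140 members (rows, grouped by class and ordered by their difference in GS) in the 23 lines (columns), minus each member's mean over the lines; the colour scale ends at 1.5. GS columns are mostly below the mean, Sox2 mGS columns are paler in the same direction, and the 2 rows at the foot of the Rpl block, Rpl10l and Rpl39l, run the other way.

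The geometric mean of the members gave the same picture by line. For the 63 cytosolic members it was 3158 to 3335 in the 3 GS lines, 3332 to 3379 in Sox2 mGS, 3476 to 3697 in Oct4 mGS, 3682 to 3948 in Dmrt mGS, 3786 to 4069 in Dnmt mGS, 4131 to 4268 in mGS, 4317 to 4352 in iPS and 3909 to 4438 in ES. GS 1 lay above the lowest Sox2 mGS line, and every other pluripotent line was above all GS lines. For the 77 mitochondrial members it was 747 to 806 in GS, 777 to 814 in Sox2 mGS, 878 to 972 in Oct4 mGS, 951 to 1009 in Dmrt mGS, 991 to 1014 in Dnmt mGS, 1032 to 1078 in mGS, 1052 to 1100 in iPS and 947 to 1157 in ES. The ES range was the widest: line R1 was the highest of all 23 lines for both sets and line B6-6 the lowest of the ES lines. The feeder score, the geometric mean of the 20 markers, was 1508 to 2108 in Sox2 mGS, the pluripotent type with the lowest member means, and 792 to 1599 in Oct4 mGS, the next lowest. It was 281 to 866 in GS, 306 to 441 in iPS and 1413 in Dnmt mGS 3, whose cytosolic mean was 3983. With the score in the fit 30 cytosolic and 44 mitochondrial members were lower in GS than in the pluripotent types.

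**Figure D2:**
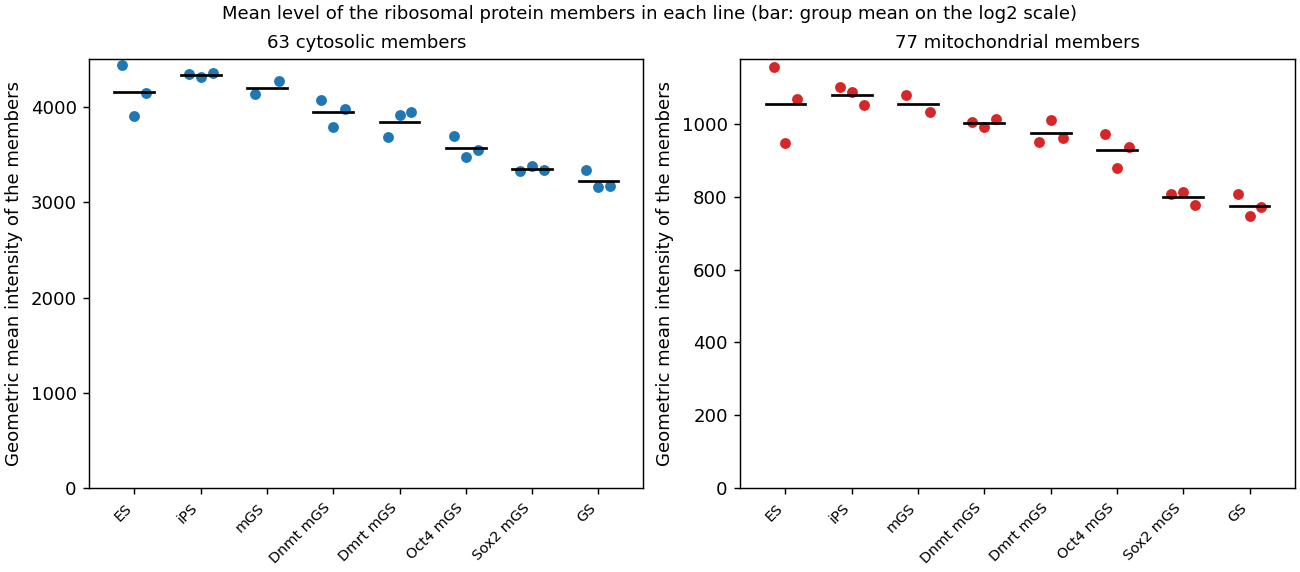
Geometric mean intensity of the 63 cytosolic members (left) and the 77 mitochondrial members (right) in each line, by group; points are lines, bars are group means on the log2 scale, and both axes start at 0. The GS lines (3158 to 3335 and 747 to 806) and the Sox2 mGS lines (3332 to 3379 and 777 to 814) are the lowest in both panels.

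The first comparison set GS cells against the mean of the 7 pluripotent types. The media of GS cells and the pluripotent types differed, so cell type and medium cannot be told apart in any comparison with GS. Most members of both ribosomes were lower in GS. Of 63 cytosolic members 34 fell, 2 rose and 27 were not called, with a median log2 difference of −0.19. Of 77 mitochondrial members 44 fell, 9 rose and 24 were not called, with a median of −0.31. Over all genes tested, 33.9% rose and 21.5% fell, with a median of 0.10, so the members leaned toward GS being lower while the arrays as a whole leaned the other way. All 3 GS lines lay below all 20 pluripotent lines for 15 cytosolic (23.8%) and 22 mitochondrial members (28.6%), against 11.1% of all genes, and above them for 1 and 5 members, against 16.1% of all genes. By class, 21 of 38 Rpl, 13 of 25 Rps, 30 of 48 Mrpl and 14 of 29 Mrps members fell. The total of cytosolic members called and that of mitochondrial members called each changed by less than 1.5 times under every alternative tried. The counts by class and of lines without overlap were not compared in this way.

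**Figure D3:**
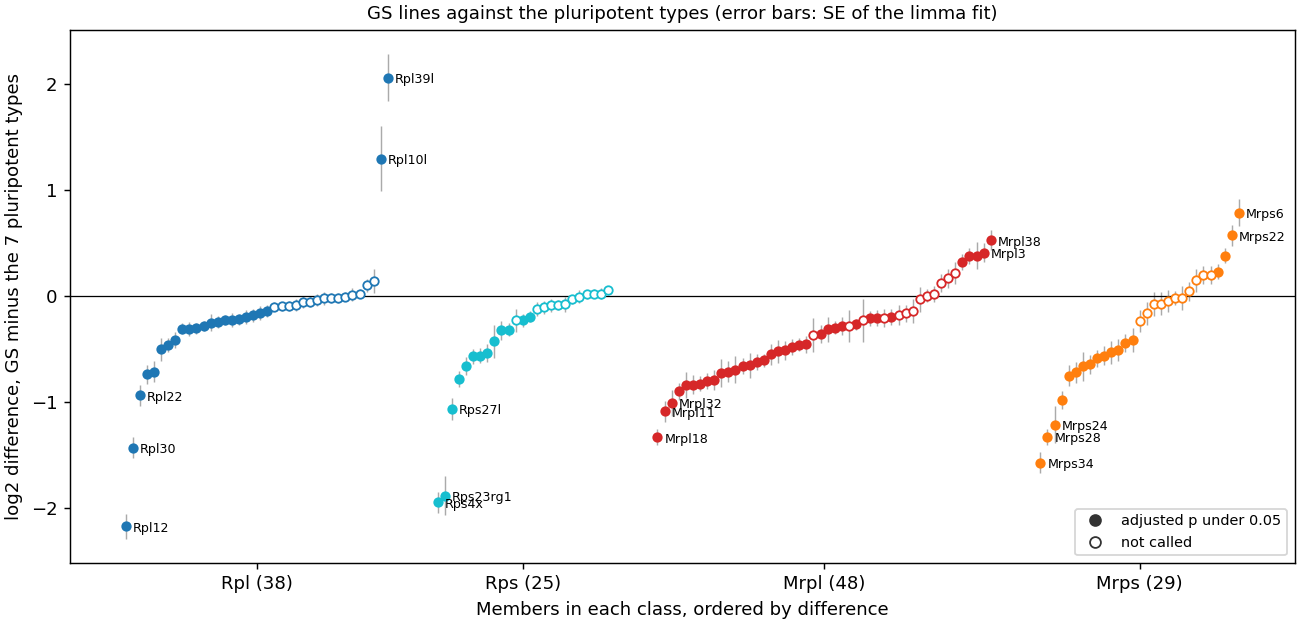
Log2 difference between GS lines and the mean of the 7 pluripotent types for each member, ordered within its class; error bars are the standard error of the limma fit, filled points passed the adjusted p of 0.05 and open points did not. Most points lie between 0 and −1, Rpl12, Rps4x and Rps23rg1 lie near −2, and Rpl10l and Rpl39l stand alone above 1.

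Of the large cytosolic subunit, Rpl12, a protein of the stalk base where elongation factors bind, fell most by the probe set that lists it alone. The intensity of that probe set was 269, 256 and 288 in GS 1, 2 and 3, and in the 20 pluripotent lines the lowest, median and highest values were 958, 1184 and 1737. The groups were far apart, with a difference of −2.17 ± 0.12 (adjusted p = 3.3e-11, 4.50-fold lower). The array also holds 8 probe sets listed with Rpl12 and another symbol. Of these 1 differed by −1.83, and the other 7, far brighter at 7372 to 9492 in GS, differed by only −0.10 to −0.08. Which of them reads the Rpl12 message was not tested, so the fall of Rpl12 rests on the dimmer probe sets.

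Rpl30, a small large-subunit protein that binds its own transcript in yeast, was 1258, 1057 and 1018 in the GS lines and 2077 to 4508 with a median of 3016 in the pluripotent lines (−1.43 ± 0.10, adjusted p = 7.8e-10). Its groups did not overlap, but the 10 probe sets that list it with another symbol differed by only −0.24 to −0.17, and which of them reads the gene's own message was not tested. Rpl22, an RNA-binding protein whose loss mice tolerate through its paralogue Rpl22l1, was 925, 672 and 733 in GS against a lowest pluripotent value of 995 in Sox2 mGS 1 (−0.94 ± 0.10, adjusted p = 2.9e-07). Rpl24 was 1930, 1507 and 1671 against 2038 or more (−0.74 ± 0.09, adjusted p = 1.1e-06), and its 3 probe sets agreed within −0.86 to −0.74.

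Of the small cytosolic subunit, Rps4x, the X-linked copy of the protein eS4, had the greatest fall. It was 1896, 1243 and 1053 in the GS lines, and between 4718 in Dnmt mGS 3 and 5797 in iPS 2 in all others. The difference was −1.94 ± 0.10 (adjusted p = 2.0e-11, 3.85-fold), and each of its 5 probe sets gave −2.56 to −1.94. Rps4l, a retrocopy that RefSeq lists as a transcribed pseudogene, did not pass the test, with 3099, 3198 and 3116 in GS and a pluripotent median of 3589 (−0.08 ± 0.07, adjusted p = 0.38). The other X-linked members measured, Rpl10 (−0.29 ± 0.05) and Rpl36a (−0.31 ± 0.05), fell by far less.

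Rps23rg1 was under the background level in all 3 GS lines (129, 138 and 154) and 335 to 764 in the pluripotent lines, which makes it at least 3.21-fold lower in GS. Rps27l, a paralogue of Rps27 that is known as a p53-inducible gene, was 2745, 1808 and 1879 in GS and 3336 to 5072 with a median of 4473 elsewhere (−1.06 ± 0.10, adjusted p = 5.9e-08). Rps29 was 1892, 1643 and 1719 in GS and 1931 to 4051 elsewhere (−0.78 ± 0.07, adjusted p = 7.4e-08), with 4 probe sets between −0.80 and −0.78. In the case of Rps29 the highest GS line and the lowest Sox2 mGS line were close.

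The 2 cytosolic members that rose are both retrogene paralogues of X-linked genes. Rpl39l was 1301, 1591 and 1530 in GS, and in the pluripotent lines 109, 372 and 980 were the lowest, median and highest values (2.06 ± 0.22, adjusted p = 2.6e-07, 4.17-fold). No pluripotent line reached the GS range. Rpl10l was 3584, 3773 and 3036 in GS, and 331, 1754 and 3134 were the lowest, median and highest pluripotent values (1.29 ± 0.31, adjusted p = 0.0016). Here the groups overlapped, since ES R1 and ES BRC1 at 3103 and 3134 exceeded GS 3. Rpl10, the parent gene of Rpl10l, was 7196, 8055 and 8111 in GS and 8699 to 10790 elsewhere. Whether the probe sets of these retrogenes also read their parent transcripts was not tested, and Rpl39 was not analysed here.

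The remaining paralogues above background differed by −0.50 to −0.10, as did Rpl5, Rpl23, Rps3 and Rps7. These last 4 are among the proteins known to bind Mdm2, the p53 ubiquitin ligase. Rpl11, also known to bind Mdm2, was not analysed. Rpl3l, below background, did not pass the test (0.14 ± 0.11, adjusted p = 0.29). Rpl7 fell (−0.50 ± 0.11, adjusted p = 6.0e-04) and Rpl7l1 by less (−0.16 ± 0.06, adjusted p = 0.044), a call that was lost in 15 of the alternatives. Rps3 (−0.20 ± 0.05, adjusted p = 0.0043) and Rpl23 (−0.18 ± 0.06, adjusted p = 0.017) passed the test, while Rpl5 (−0.10 ± 0.05, adjusted p = 0.082) and Rps7 (−0.12 ± 0.07, adjusted p = 0.12) did not, and all 4 had overlapping lines. A second, dimmer probe set of Rpl23 (2284 in GS against 3751) differed by −0.72, so its size depends on the probe set. Rpl23 lost its call without GS 2, without GS 3 and with the feeder score in the fit.

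The cytosolic calls were unevenly spread over the levels. Of the 31 members above the cytosolic median of 4484 intensity units, 11 fell and the greatest fall was −0.46, while of the 32 at or below it 23 fell and 2 rose. Whether the brightest probe sets approach the upper end of the scanner's range was not tested. Mitochondrial members showed no such split, with 22 falls on either side of their median of 978. The size of a fall could depend on the probe set used. A dimmer probe set differed by more in Rps9 (−0.74 against −0.23) and by less in Rps14 (−0.16 against −0.32). Of the 39 cytosolic members with several probe sets 21 fell, and of the 24 with a single one 13 fell.

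In the large mitochondrial subunit, Mrpl18, a protein that binds and imports the 5S ribosomal RNA, was 577, 440 and 491 in GS and 971 to 1541 in the pluripotent lines (−1.33 ± 0.07, adjusted p = 5.8e-11, 2.52-fold). Mrpl11, of the stalk base, was 452, 381 and 413 against 610 to 1180 (−1.09 ± 0.10, adjusted p = 4.2e-08). Mrpl32, a substrate of the m-AAA protease on its way into the ribosome, was 336, 224 and 243 against 311 to 787, so that GS 1 exceeded the lowest pluripotent line, Sox2 mGS 1 (−1.01 ± 0.12, adjusted p = 1.3e-06). Mrpl10, of the stalk, was 1106, 1168 and 1255 against 1823 to 2771 (−0.90 ± 0.08, adjusted p = 2.6e-08).

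In the small mitochondrial subunit, Mrps34 was 216, 163 and 183 in GS, just above background, and 340 to 762 with a median of 585 in the pluripotent lines (−1.57 ± 0.10, adjusted p = 2.2e-10, 2.97-fold). Mrps28 was 184, 215 and 232 against 381 to 721 (−1.32 ± 0.08, adjusted p = 7.9e-11). Mrps24 was 766, 720 and 735 against 848 to 2626, a wide range in which Sox2 mGS 2 and 3 were near GS (−1.21 ± 0.18, adjusted p = 1.3e-05). Mrps15 was 1072, 926 and 1100 against 1751 to 2973 (−0.98 ± 0.08, adjusted p = 1.3e-08). In all 4 the GS lines were below every pluripotent line.

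The mitochondrial members that rose in GS did so by less. Mrps6 was 1919, 2138 and 2306 in GS and 871 to 1565 in the pluripotent lines (0.79 ± 0.13, adjusted p = 4.0e-05). Mrps22 was 1566, 1131 and 1131 against 578 to 1071 (0.57 ± 0.10, adjusted p = 6.2e-05). Both kept GS above every pluripotent line, as did Mrps16 (0.38 ± 0.07) and, in the large subunit, Mrpl3 (0.41 ± 0.09). The lines overlapped for Mrpl38 (0.53 ± 0.10), Mrpl4 (0.38 ± 0.08), Mrpl14 (0.38 ± 0.13) and Mrps5 (0.23 ± 0.07). The calls of Mrpl14 and Mrps5 were lost with the feeder score in the fit, and without GS 1 for Mrpl14 and GS 2 for Mrps5.

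**Figure D4:**
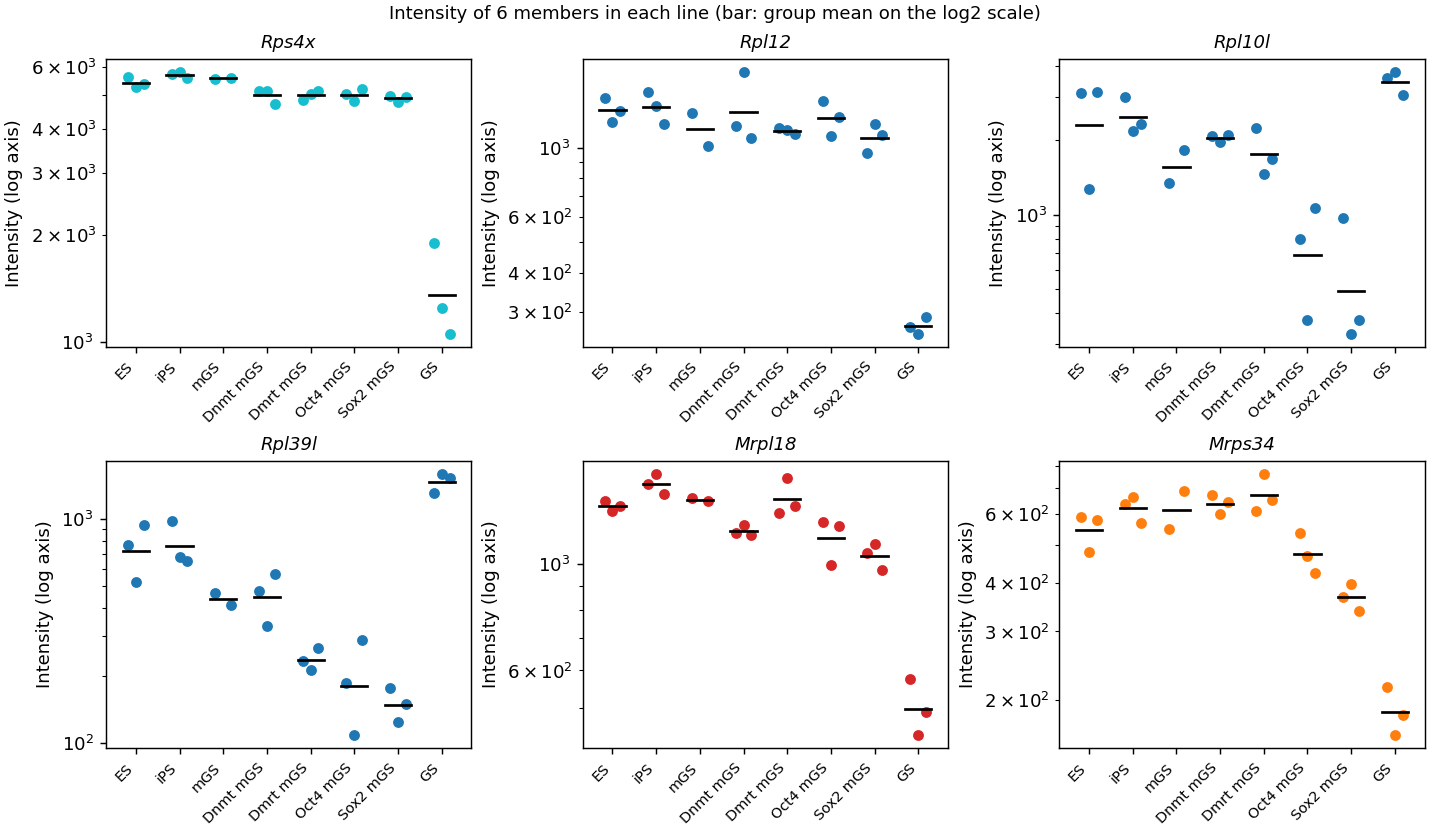
Intensity of 6 members in each line, by group, on log axes whose ranges differ between panels; points are lines and bars are group means on the log2 scale. Rps4x, Rpl12, Mrpl18 and Mrps34 are lowest in the GS lines, whereas Rpl39l and Rpl10l are highest there and lowest in Sox2 mGS (149 and 493 on average) and Oct4 mGS (180 and 685).

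Other genes of protein synthesis were read from lists grouped by function, which were drawn up with earlier results of these data known. Of 5 further ribosomal proteins whose symbols the name rule does not reach, 4 fell and 0 rose, with the greatest fall in Chchd1, a mitochondrial small-subunit protein (−1.80 ± 0.08, 273 in GS against 952), followed by Ptcd3 (−0.74 ± 0.07). Of 50 ribosome biogenesis genes 22 fell and 11 rose, with a median of −0.18. Mdn1, the AAA ATPase that strips factors from the pre-60S particle (1.15 ± 0.13), and Nop14 (0.89 ± 0.07) rose most, and Wdr12, of the PeBoW complex (−0.88 ± 0.08), and Las1l (−0.77 ± 0.09) fell most. Of 38 cytosolic translation factors 21 fell and 4 rose, with a median of −0.22. The falls were led by subunits of initiation factor eIF2, Eif2s3x (1462 in GS against 4633, −1.66 ± 0.08) and Eif2s2 (−1.47 ± 0.08), and the rises by Eif5a2 (3255 against 554, 2.56 ± 0.15) and Gspt2 (0.85 ± 0.09), both paralogues of broadly used factors.

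Of 39 mitochondrial translation factors and synthetases 14 fell and 12 rose, with a median of −0.08, and falls and rises were similar in number. Gfm1, an elongation factor (−1.04 ± 0.07), and Aars2, the alanyl-tRNA synthetase (−1.01 ± 0.08), fell most, while Nars2 (1.60 ± 0.09) and Mrrf, the recycling factor (0.78 ± 0.10), rose most. Of 17 genes of the Myc family and growth control 6 rose and 5 fell. Myc was 228, 107 and 96.2 in GS and ranged from 55.4 to 1595 in the pluripotent lines (−2.44 ± 0.79, adjusted p = 0.014), with overlap. Of the GS lines 1 of 3 was above background, so the size is not fully measured, and with the dim lines set to background the pluripotent mean was at least 3.98-fold higher. Mycn fell as well (−0.77 ± 0.17). Mtor (1.17 ± 0.08) and Mxd4, a Myc antagonist (1.15 ± 0.13), rose.

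Against ES cells alone, which share the 3 GS lines with the first comparison, 33 cytosolic members were lower in GS and 1 was higher, and 42 mitochondrial members were lower and 5 higher (over all genes, 26% higher and 17.2% lower). Rpl12 (−2.28 ± 0.15), Rps4x (−2.00 ± 0.13) and Rpl30 (−1.81 ± 0.13) had the greatest falls, and Rpl39l (1.03 ± 0.29), Mrps6 (0.58 ± 0.17) and Mrps22 (0.48 ± 0.13) the greatest rises.

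The 5 mGS types, all derived from GS cultures, were each set against the same 3 GS lines, so these comparisons are not independent of each other. In spontaneous mGS 36 cytosolic members were higher and 2 lower, and 44 mitochondrial members were higher and 5 lower (all genes, 16.2% and 26.9%). Dnmt mGS had 28 and 40 members higher (all genes 19.1% higher, 30% lower), Dmrt mGS 27 and 39 (17.6% and 24.1%) and Oct4 mGS 20 and 39 (20.2% and 22.6%), with 1 to 2 cytosolic and 5 to 11 mitochondrial members lower. Sox2 mGS differed in its counts, with 12 cytosolic members higher and 10 lower, and 23 mitochondrial members higher and 19 lower, against 19.4% of all genes higher and 24.6% lower.

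Rps4x and Rpl12 were higher than GS in each of these types, Rps4x by 1.85 to 2.04 and Rpl12 by 1.99 to 2.26, with standard errors of 0.13 to 0.17. Rpl39l was lower than GS in each, by −1.71 ± 0.29 in Dnmt mGS, −1.75 ± 0.32 in mGS, −2.64 ± 0.29 in Dmrt mGS and −3.03 ± 0.29 in Oct4 mGS. In Sox2 mGS, where 1 of 3 lines was above background, it was at least 8.85-fold lower than in GS (dim lines set to background; fitted difference −3.31 ± 0.29). Rpl10l was lower in Sox2 mGS (−2.81 ± 0.40), Oct4 mGS (−2.33 ± 0.40) and mGS (−1.14 ± 0.45), the last with an adjusted p of 0.049 that was lost in 19 alternatives. Mrps6 was lower in mGS, Dnmt mGS, Dmrt mGS and Oct4 mGS by −0.66 to −1.16, Mrpl3 in Dnmt mGS and Dmrt mGS by −0.58 and −0.65, and Mrpl38 in Sox2 mGS by −1.06 ± 0.13. Mrps34 was higher in mGS by 1.73 ± 0.14.

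iPS and ES cells, the reference pluripotent cells, differed in a single member. The iPS lines were on a DBA/2 background and the ES lines of other strains or crosses, so cell type and strain cannot be told apart here. Mrpl35, of the large mitochondrial subunit, was 981, 997 and 881 in iPS and 1563, 1467 and 1362 in ES R1, B6-6 and BRC1 (−0.62 ± 0.11, adjusted p = 0.012). The iPS and ES lines did not overlap, and the share of all genes without overlap between them was not computed. The Mrpl35 call was lost without iPS 5, with only these 2 groups in the fit, and with arrays centred on their medians. Outside ES the group means of Mrpl35 ran from 781 in GS to 1061 in Dnmt mGS, against 1462 in ES. In iPS against ES 0.291% of all genes were higher and 0.336% lower. At an unadjusted p under 0.05, 3 of 63 cytosolic members were higher and 0 lower, and 9 of 77 mitochondrial members were higher and 3 lower, against 5.2% of all genes higher and 7.72% lower.

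Spontaneous mGS cells against iPS cells gave 0 calls in limma over all genes (0% higher and 0% lower) and 0 of the members in any of the alternatives. At an unadjusted p under 0.05 there were 138 genes higher and 87 lower, of which 2 cytosolic members and 0 mitochondrial members were lower (0.692% and 0.436% of all genes). The medians of the members were −0.02 and −0.03. With 2 mGS lines this does not show that the levels are equal.

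The lentiviral routes were then set against iPS cells. In Sox2 mGS 34 cytosolic and 48 mitochondrial members were lower and 0 were higher, with medians of −0.25 and −0.40, whereas 14.4% of all genes were higher and 9.22% lower. In Oct4 mGS 24 and 18 members were lower and 0 higher, with medians of −0.19 and −0.22 (all genes 10.4% higher and 3.43% lower). In Dnmt mGS 7 cytosolic and 5 mitochondrial members were lower and 1 mitochondrial member was higher (4.18% and 2.68%), and in Dmrt mGS 3 and 1 were lower (0.356% and 0.492%). The medians of the members were −0.12 and −0.12 in Dnmt mGS and −0.15 and −0.16 in Dmrt mGS. Of the 4 routes, Sox2 mGS had counts that stayed within 1.5 times when any 1 line was left out. The 42 members called in Oct4 mGS became 24, 21 and 22 without iPS 1, 2 and 5, and 25 and 20 without Oct4 mGS 1 and 2. The 13 called in Dnmt mGS became 3, 2 and 5 without iPS 1, 2 and 5, 2 without Dnmt mGS 1 and 5 without the line labelled Dnmt mGS 2. The 4 called in Dmrt mGS became 0 to 2 without any of the iPS or Dmrt mGS lines or GS 2, and 9 without ES R1.

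Array scaling bears on these counts, because the median of all genes in Sox2 mGS and Oct4 mGS against iPS was 0.10 and 0.12, and centring the arrays on their medians moved it by −0.15 in both. With that centring 1283 genes were higher and 3003 lower in Sox2 mGS in place of 2869 and 1839, and 356 and 1246 in Oct4 mGS in place of 2066 and 683. The members lower in Sox2 mGS then numbered 53 cytosolic and 60 mitochondrial, and in Oct4 mGS 41 and 28. With quantile normalization Sox2 mGS had 33 and 50 and Oct4 mGS 24 and 19. Feeder markers moved with the same contrast, 14 of 20 being higher in Sox2 mGS than in iPS and 4 of 20 in Oct4 mGS. With the feeder score of each line in the fit, 26 cytosolic and 24 mitochondrial members were lower in Sox2 mGS, with medians of −0.29 and −0.44, and 24 and 11 in Oct4 mGS. The score was 306 to 441 in iPS and overlapped neither Sox2 mGS (1508 to 2108) nor Oct4 mGS (792 to 1599). This fit therefore cannot tell feeder content and route apart.

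Rpl39l and Rpl10l led the members that were lower than in iPS. Rpl39l was 980, 676 and 649 in iPS, 176, 124 and 150 in Sox2 mGS (−2.34 ± 0.29, adjusted p = 9.0e-05) and 186, 109 and 290 in Oct4 mGS (−2.07 ± 0.29, adjusted p = 8.6e-04). It was 232, 213 and 265 in Dmrt mGS (−1.68 ± 0.29, adjusted p = 0.010). In Sox2 mGS 2 of the 3 lines were below the background level, and with these set to background Rpl39l was at least 4.55-fold lower than in iPS. In Oct4 mGS 1 of the 3 lines was below it. The Dmrt mGS call was lost when iPS 1 was left out and when the fit held only Dmrt mGS and iPS. Rpl10l was 2990, 2181 and 2334 in iPS, 972, 331 and 374 in Sox2 mGS (−2.33 ± 0.40, adjusted p = 0.0011) and 802, 375 and 1069 in Oct4 mGS (−1.86 ± 0.40, adjusted p = 0.0096). Mrpl36, the ortholog of a short bacterial large-subunit protein, was 1704, 1698 and 1360 in iPS and 763, 734 and 687 in Sox2 mGS (−1.12 ± 0.17), and it was lower in Oct4 mGS as well (−0.87 ± 0.17).

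In order of its group means, Rpl39l ran from GS (1469) through iPS (755), ES (721), Dnmt mGS (449), mGS (438), Dmrt mGS (236) and Oct4 mGS (180) to Sox2 mGS (149). The lines of neighbours in this order overlapped except between GS and iPS and between mGS and Dmrt mGS. Rpl10l ran from GS (3450) through iPS (2478), ES, Dnmt mGS (2047), Dmrt mGS, mGS (1565) and Oct4 mGS (685) to Sox2 mGS (493), and its neighbours overlapped except between GS and iPS and between mGS and Oct4 mGS.

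In Dnmt mGS Mrps35 was 230, 438 and 290 against 545, 525 and 524 in iPS (−0.79 ± 0.18, adjusted p = 0.015), Mrps28 was 381, 446 and 397 against 647, 721 and 646 (−0.72 ± 0.10, adjusted p = 9.5e-04), and Rpl30 was 2077, 2241 and 2157 against 3507, 3608 and 3176 (−0.67 ± 0.13, adjusted p = 0.0065). Mrps2 was the member that was higher (0.41 ± 0.12, adjusted p = 0.047). In Dmrt mGS Rpl14 was 784, 1163 and 1075 against 1584, 1691 and 1634 (−0.72 ± 0.13, adjusted p = 0.013) and Mrps28 was lower too (−0.47 ± 0.10, adjusted p = 0.035). Lines did not overlap for any of these 6 results, and the share of all genes without overlap in these comparisons was not computed. The calls of Mrps35 and Rpl14 were lost without iPS 1, without iPS 2, without line 1 of their own route, with only the groups compared in the fit and with clone number as a block. That of Mrps2 was lost in 17 alternatives, among them leaving out any iPS line and centring the arrays, and that of Mrps28 in Dmrt mGS in 10, among them leaving out any iPS or Dmrt mGS line.

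**Figure D5:**
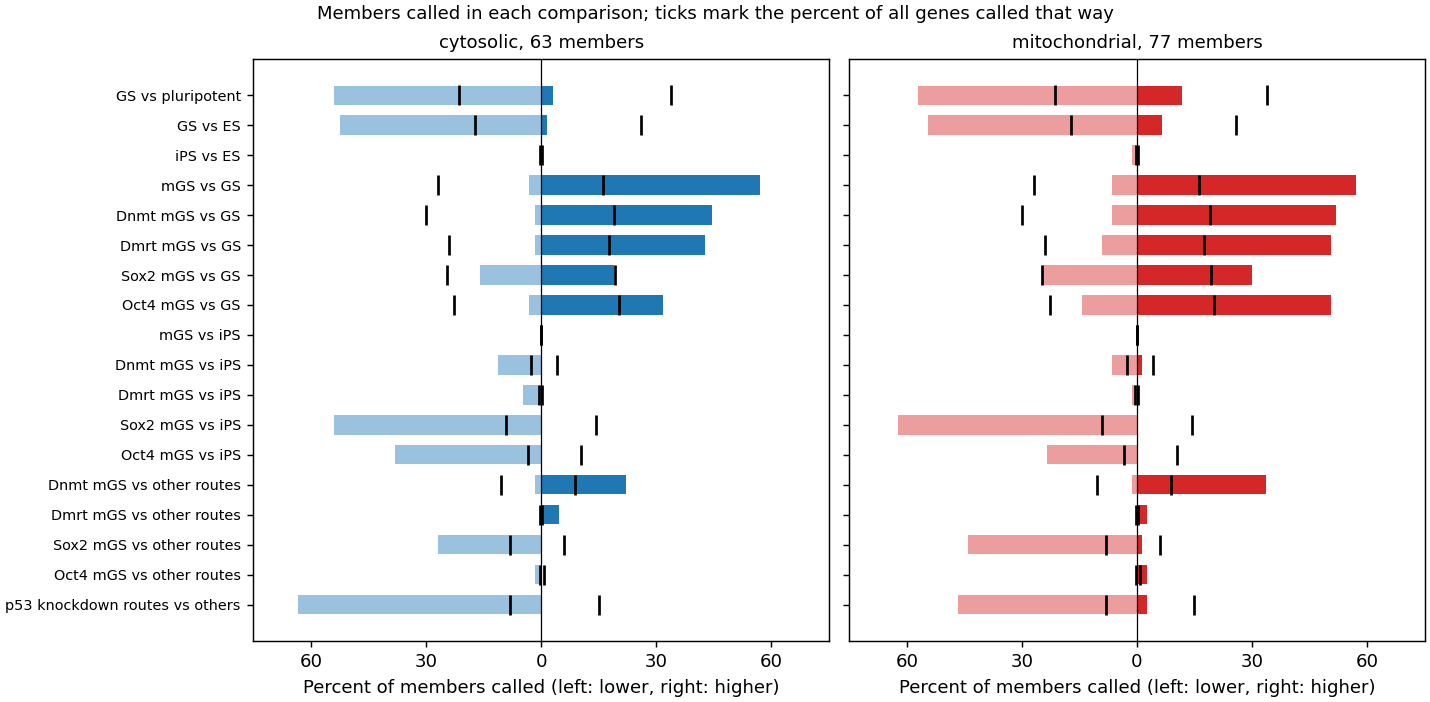
Percent of the 63 cytosolic members (left) and 77 mitochondrial members (right) called at an adjusted p of 0.05 in each of 18 comparisons, lower to the left and higher to the right; black ticks mark the percent of all 19938 genes called in that direction. In both panels lower bars pass the ticks for GS against ES or the pluripotent types, each lentiviral route against iPS and the p53 knockdown routes. They also do so for Sox2 mGS against the other routes. Higher bars pass them in both panels for spontaneous mGS, Dnmt mGS, Dmrt mGS and Oct4 mGS against GS. The same holds for Dnmt mGS and Dmrt mGS against the other routes. Some bars pass in a single panel, such as the higher mitochondrial bar of Sox2 mGS against GS.

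The 12 lines with p53 knockdown, which are also the lines with lentiviral vectors, were set against the mean of ES, iPS and spontaneous mGS. Of the cytosolic members 40 were lower and 0 higher, and of the mitochondrial members 36 were lower and 2 higher, with medians of −0.16 and −0.20, against 15% of all genes higher and 8.2% lower. Centring the arrays turned the split of all genes to 1069 higher and 2856 lower, from 2988 and 1635, and gave 55 and 62 members lower. Feeder markers were higher for 6 of 20 genes and lower for 0 in the same comparison, and with the feeder score in the fit 43 and 37 members were lower.

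The greatest differences were in Rpl39l (231 against 620, −1.43 ± 0.16, adjusted p = 2.9e-05), Rpl10l (1052 against 2077, −0.98 ± 0.23, adjusted p = 0.0057) and Mrps28 (440 against 662, −0.59 ± 0.06, adjusted p = 7.7e-06). Mrps28 was lower in all 12 knockdown lines than in all 8 others, and the first 2 genes overlapped. The 2 mitochondrial members that were higher were Mrps2 (0.20 ± 0.07) and Mrpl57 (0.19 ± 0.06), neither of which passed with median centring. The call of Mrps2 was also lost on leaving out any of 11 lines, and that of Mrpl57 without ES BRC1, iPS 1, mGS 1 or mGS 2. Rps27l, known as a p53 target, was 4102 against 4829 (−0.24 ± 0.07, adjusted p = 0.030), with overlapping lines and a call that was lost without ES R1, iPS 2, iPS 5, Dnmt mGS 1 or either mGS line. The Mdm2-binding proteins named above, Rps3 (−0.22 ± 0.04), Rps7 (−0.17 ± 0.05), Rpl23 (−0.16 ± 0.05) and Rpl5 (−0.12 ± 0.03), all passed the test at sizes near the median of the cytosolic members, Rps7 not without mGS 2. Rps4l (−0.30 ± 0.06) and Rpl7 (−0.30 ± 0.08) passed too, while Rps4x (−0.16 ± 0.08, adjusted p = 0.12), Rpl10 (−0.10 ± 0.04, adjusted p = 0.050) and Rpl7l1 (−0.02 ± 0.05, adjusted p = 0.80) did not. The lines did not overlap for Rps4x either, and the share of all genes without overlap in this comparison was not computed.

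Each route was finally set against the mean of the other 3 routes. Sox2 mGS had 17 cytosolic and 34 mitochondrial members lower and 1 mitochondrial member, Mrpl3, higher (all genes 5.99% higher and 8.16% lower). Without Sox2 mGS 3 the lower members numbered 5 and 13, and without Sox2 mGS 1 33 members were called in all. Dnmt mGS had 14 cytosolic and 26 mitochondrial members higher and 1 of each lower (8.85% and 10.4%). Without Dnmt mGS 1 the members called fell from 42 to 6, and without the line labelled Dnmt mGS 2 to 24. Dmrt mGS had 3 and 2 members higher (0.145% and 0.171%), and Oct4 mGS had 1 cytosolic member lower and 2 mitochondrial members higher (0.813% and 0.251%). All 5 calls of Dmrt mGS were lost when any of its 3 lines was left out, and 2 to 3 members were called without any of 15 lines of other groups. The 3 of Oct4 mGS became 0 to 1 or 5 when any of 18 lines was left out.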

How the data were processed

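The deposited table holds linear intensity per probe set, 28856 probe sets on 46 arrays. How the authors scaled the arrays is not stated in the labels, and the submitters' processing notes name the assembly mm9. Log2 was taken without offset (the lowest deposited intensity is 16). Only probe sets with 1 gene symbol (21789) were used, and the one with the highest mean stood for each gene. Near-identical copies and pseudogenes can share probes, which was not resolved. The cultures of a line were averaged on the log2 scale (r between cultures 0.981 to 0.998), and array medians ran from 215.4 to 264.8. All lines entered one limma fit (limma 3.58.1, R 4.3.3, lmFit and eBayes, 15 residual and 2.71 prior degrees of freedom), with Benjamini-Hochberg adjustment in each comparison. The fit was checked on simulated data. Promoter windows came from RefSeq.

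The members, lists and the rule for named genes were chosen with earlier results of these data known. Named were fixed paralogues and Mdm2 binders, the 4 highest and 4 lowest called members of each class in GS, the 3 highest and 3 lowest in every other comparison, the 2 highest and 2 lowest of each pathway list, and the 2 most and least variable of each class. Alternatives covered the unit of replication, blocks, scaling, filter, prior trend, probe set averaging, a feeder covariate and leaving out each line or a single array. Trp53 was not analysed here. Tables were made with pandas 2.3.3 and numpy 2.4.6 in Python 3.11.15, and figures with matplotlib 3.10.9.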

Additional observations from a re-analysis of the deposited data

Results flagged for a closer look

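Single members differed between a route and the mean of the other 3 routes, by limma's test of that difference. Each such comparison uses the lines of all 4 routes, so the results are not independent.

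Rpl39l and Rpl10l differed most. Rpl39l was higher in Dnmt mGS by 1.28 ± 0.24 (adjusted p = 0.0033, higher in all 3 lines than in the other 9) and lower in Sox2 mGS by −0.85 ± 0.24 (adjusted p = 0.024). Rpl10l was higher in Dnmt mGS by 1.28 ± 0.33 (adjusted p = 0.016) and lower in Sox2 mGS by −1.46 ± 0.33 (adjusted p = 0.0088). The Sox2 mGS calls of both were lost with the feeder score in the fit, without Sox2 mGS 2 and without Sox2 mGS 3. That of Rpl39l was also lost with only the groups compared in the fit, and the Dnmt mGS call of Rpl10l was lost without Dnmt mGS 1 or the line labelled Dnmt mGS 2.

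In Dnmt mGS Mrpl14 was higher by 0.63 ± 0.14 (adjusted p = 0.0071), and Mrps35 (−0.69 ± 0.15, adjusted p = 0.0065) and Rpl30 (−0.40 ± 0.10, adjusted p = 0.017) were lower. The calls of Mrps35 and Rpl30 were lost without Dnmt mGS 1, and that of Mrpl14 without the line labelled Dnmt mGS 2. In Sox2 mGS Mrps24 was lower by −0.89 ± 0.19 (adjusted p = 0.0064), a call lost without Sox2 mGS 3, and Mrpl3 was higher by 0.31 ± 0.09 (adjusted p = 0.033), a call lost in 8 alternatives.

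In Dmrt mGS Mrps12 (0.59 ± 0.12, adjusted p = 0.039), Rps29 (0.49 ± 0.08, adjusted p = 0.016) and Rps4l (0.47 ± 0.08, adjusted p = 0.016) were higher. In Oct4 mGS Mrpl19 (0.38 ± 0.08, adjusted p = 0.044) and Mrpl9 (0.33 ± 0.08, adjusted p = 0.045) were higher and Rps29 (−0.35 ± 0.08, adjusted p = 0.046) was lower. The 3 Oct4 mGS calls and that of Mrps12 were lost in 19 to 23 alternatives, and those of Rps29 and Rps4l in Dmrt mGS with only the groups compared in the fit and without any of the 3 Dmrt mGS lines.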

How the results depend on the processing

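No called result of a named member changed sign in any alternative, and sign changes of results that were not called were not counted. Of 110 called results of named members 79 kept their call in all 35 alternatives, 31 lost it when some line was left out and 22 under some other alternative. Counts of members called in GS against ES or the pluripotent types, and in each mGS type against GS, stayed within 1.5 times. Numbers are cytosolic and mitochondrial members together unless stated.

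With all 46 arrays taken as independent the counts rose to 52 for Dnmt mGS, 56 for Dmrt mGS and 79 for Oct4 mGS against iPS, to 69, 34 and 32 for Dnmt, Dmrt and Oct4 mGS against the other routes, to 3 cytosolic and 12 mitochondrial for iPS against ES, and to 65 mitochondrial for the p53 knockdown routes. The line as a random block gave 23 and 13 for Dnmt and Dmrt mGS against iPS, 13 and 9 for Dmrt and Oct4 mGS against the other routes and 3 mitochondrial for iPS against ES. Clone and culture numbers did not pair the samples (mean r of 0.029 over 52 same-numbered pairs), and the replicate block by culture gave 23, 13, 13, 11 and 3 for the same results. The replicate block by clone number gave 6 and 25 for Dnmt and Oct4 mGS against iPS, and 2 and 1 for Dmrt and Oct4 mGS against the other routes. It was not run for comparisons that include ES lines, which carry no clone number.

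With only the groups compared in the fit the counts were 0 and 12 for Dmrt and Oct4 mGS against iPS, 27, 0 and 0 for Dnmt, Dmrt and Oct4 mGS against the other routes, and 0 mitochondrial for iPS against ES. Median centring gave 20, 10 and 69 for Dnmt, Dmrt and Oct4 mGS against iPS, 53 cytosolic for Sox2 mGS against iPS, 62 mitochondrial for the p53 knockdown routes, 0 for Oct4 mGS against the other routes and 0 mitochondrial for iPS against ES. Quantile normalization gave 8 for Dmrt mGS against the other routes. The feeder score gave 21 for Dnmt mGS against iPS, 24 mitochondrial for Sox2 mGS against iPS, and 1 cytosolic and 2 mitochondrial for iPS against ES. Without culture 1 of Oct4 mGS 1, 1 member was called in Oct4 mGS against the other routes. The cause of these shifts was not tested.

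Leaving out single lines gave 2 to 19, 0 to 9 and 20 to 46 for Dnmt, Dmrt and Oct4 mGS against iPS, and 6 to 47, 0 to 7, 18 to 58 and 0 to 5 for Dnmt, Dmrt, Sox2 and Oct4 mGS against the other routes. It gave 0 to 2 mitochondrial for iPS against ES. Centring also changed the split of all genes: Dnmt mGS against iPS had 392 higher and 905 lower (main 834 and 535), Dmrt mGS 33 and 318 (71 and 98), and Oct4 mGS against the other routes 17 and 28 (162 and 50). The number of lines limits the precision.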
